A study of Homo sapiens with 12 samples.

Results

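The core enzymes from cholesterol to cortisol comprised 8 genes, STAR, CYP11A1, HSD3B1, HSD3B2, CYP17A1, CYP21A2, CYP11B1 and CYP11B2, taken by gene symbol from the 60662 genes of the expression table. All 8 symbols were found once. RNA-seq was performed on NCI-H295R, an established line of human adrenocortical carcinoma cells that makes cortisol, so a single cell line stood for the adrenal cortex. The 3 groups, with 4 biological replicates each, were VEH, which received the solvent DMSO at 0.1%, and CJ28 and MET, which received the compound of that name at 30 µM. Exposure lasted 24 h in all groups and began on confluent cells that had been without serum for 12 h. CJ28 is a benzimidazolylurea that lowers cortisol production, and MET is metyrapone, a blocker of the enzyme that performs the last step to cortisol. The samples show how far each compound moved the mRNA of the pathway and how the successive steps stood to each other.

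Cortisol is made from cholesterol by enzymes in mitochondria and in the endoplasmic reticulum. StAR, the product of STAR, brings cholesterol to the inner mitochondrial membrane, where CYP11A1 cuts its side chain to give pregnenolone. The HSD3B enzymes, CYP17A1 and CYP21A2 then act in the endoplasmic reticulum, and CYP11B1 completes cortisol in mitochondria, while its paralog CYP11B2 completes aldosterone. In the adrenal cortex the HSD3B enzyme is HSD3B2, whereas HSD3B1 is best known from placenta and skin. The nuclear receptor SF-1, encoded by NR5A1, and signalling through cAMP are the textbook activators of these genes.

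RefSeq promoters (GRCh38.p14) were given for 5 of the 8 genes, and 4 are printed because their genes covered the range of changes described below. Each is the 250 bases before the RefSeq start of the gene, which for CYP17A1 and CYP21A2 is not the start given in the expression table, written 5′ to 3′ on the gene's strand, and capitals mark AAGGNCA, the sequence bound by SF-1, searched on both strands. The windows are chr15:74367647-74367896 on the minus strand for CYP11A1, chr1:119414681-119414930 on the plus strand for HSD3B2, chr10:102837414-102837663 on the minus strand for CYP17A1 and chr6:32038165-32038414 on the plus strand for CYP21A2.
CYP11A1: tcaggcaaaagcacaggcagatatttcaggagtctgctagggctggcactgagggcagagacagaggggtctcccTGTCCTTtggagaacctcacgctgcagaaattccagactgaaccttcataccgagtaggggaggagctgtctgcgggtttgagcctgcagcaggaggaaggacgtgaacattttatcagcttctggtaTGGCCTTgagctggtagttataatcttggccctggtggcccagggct
HSD3B2: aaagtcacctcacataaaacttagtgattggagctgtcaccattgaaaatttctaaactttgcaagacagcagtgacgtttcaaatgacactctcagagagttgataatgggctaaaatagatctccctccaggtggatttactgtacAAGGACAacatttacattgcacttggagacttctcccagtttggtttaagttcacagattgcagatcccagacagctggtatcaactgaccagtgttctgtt
CYP17A1: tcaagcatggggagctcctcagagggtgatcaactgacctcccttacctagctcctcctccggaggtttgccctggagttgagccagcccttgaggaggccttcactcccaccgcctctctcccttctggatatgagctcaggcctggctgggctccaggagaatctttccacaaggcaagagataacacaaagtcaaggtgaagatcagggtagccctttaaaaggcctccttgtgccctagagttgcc
CYP21A2: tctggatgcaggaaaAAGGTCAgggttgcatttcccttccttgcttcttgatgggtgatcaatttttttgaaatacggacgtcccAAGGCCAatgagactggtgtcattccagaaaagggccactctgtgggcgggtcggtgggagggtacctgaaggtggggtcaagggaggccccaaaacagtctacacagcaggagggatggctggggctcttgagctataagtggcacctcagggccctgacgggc
CYP11A1 held 2 matches, both on the opposite strand, at positions -175 to -169 and -47 to -41 from the start. HSD3B2 held 1 match at -102 to -96, and CYP21A2 held 2, at -235 to -229 and -165 to -159. No exact match stood in the CYP17A1 window. HSD3B1, whose promoter is not printed, held AAGGTCA at -123 to -117 or -130 to -124, depending on the RefSeq start. That gene was at no more than 0.24 TPM in any sample. Variants of the motif were not searched, so the lack of a match does not show the lack of a site. Of all 34788 promoter windows of this length, 14.9% held the motif. TGACG, the core of the cAMP response element, stood in the HSD3B2 and CYP21A2 windows and in 21.2% of all windows. TATAAA stood in none of the 4 windows printed and in 10.8% of all windows. TGACG and TATAAA were also searched on both strands, and none of the 3 motifs shares a match with another in these windows. A match is a run of letters and was not tested as a binding site.

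Values were TPM, the length-corrected share of a gene among the transcripts of its sample, so levels of different genes can be set side by side. Every sample summed to the same total, read counts cannot be read from TPM, and a larger share for some transcripts lowers the TPM of all others. The share of TPM from nuclear protein-coding genes was 24.3 to 24.8% in VEH, 24.1 to 24.6% in MET and 21.3 to 21.4% in CJ28. No pair of samples held identical values. Of 8 adrenocortical markers, 7 reached 0.5 TPM in at least 1 sample, and MRAP, the accessory protein of the ACTH receptor, did not. TH, which defines adrenal medulla, and CD3E, which defines T cells, were listed at 0 in all 12 samples. The summed markers of each of 5 other cell types, medulla, endothelium, leukocytes, fibroblasts and hepatocytes, stayed at or below 1.17 TPM in every sample. Of these, the medulla markers summed to 0.66 to 0.95 TPM in VEH and 0.48 to 0.64 in CJ28, the fibroblast markers to 0.52 to 1.15 and 0.1 to 0.61, and their part in the results on CJ28 was not tested.

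Nearly all of the pathway's mRNA came from CYP11A1, STAR, CYP17A1 and CYP21A2, and CYP11A1 was the most abundant. In VEH, CYP11A1 was at 91.69, 90.56, 94.94 and 93.22 TPM in replicates 1 to 4, which placed it 383rd to 405th among 19944 nuclear protein-coding genes. STAR, the first step, followed at 55.09, 53.25, 59.74 and 55.36 TPM. CYP17A1, the 17α-hydroxylase that commits steroids to cortisol and androgens, was at 49.66, 47.33, 49.37 and 49.47 TPM. These 3 genes did not overlap with each other in any group. CYP21A2, the steroid 21-hydroxylase, was at 28.70, 27.92, 29.74 and 29.06 TPM. HSD3B2, which converts pregnenolone-type into progesterone-type steroids, was at only 0.88, 0.84, 0.97 and 0.76 TPM and ranked between 11203 and 11692. The mean of CYP21A2 was 33.5 times that of HSD3B2, by far the largest step between neighbours among these 5 genes in VEH.

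**Figure D1:**
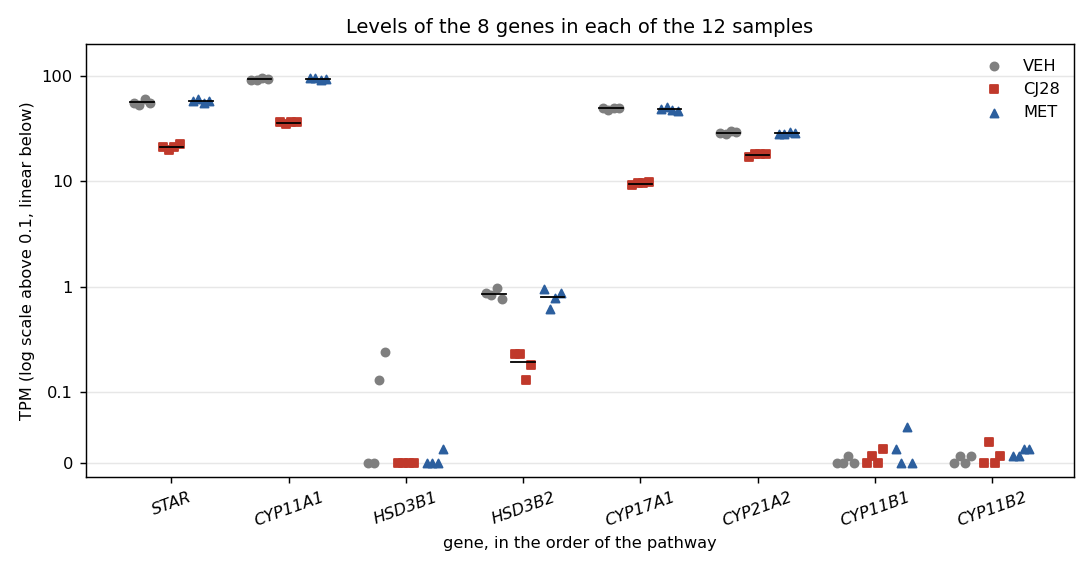
TPM of the 8 genes in each of the 12 samples, in pathway order on the x axis, with the y axis logarithmic above 0.1 and linear below it; points are samples, colours are VEH, CJ28 and MET, and short lines are group means for genes above 0 in all samples. CYP11A1, STAR, CYP17A1, CYP21A2 and HSD3B2 lay lower in all 4 CJ28 samples than in every VEH and MET sample, and HSD3B1, CYP11B1 and CYP11B2 lay near 0 in all groups.

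The last step to cortisol and the paralogs were near or at 0. CYP11B1, the 11β-hydroxylase and the enzyme that MET blocks, was listed at 0, 0, 0.01 and 0 TPM in VEH samples, at 0, 0.01, 0 and 0.02 with CJ28 and at 0.02, 0, 0.05 and 0 with MET. CYP11B2, the aldosterone synthase, was listed at 0, 0.01, 0 and 0.01 TPM in VEH samples, at 0, 0.03, 0 and 0.01 with CJ28 and at 0.01, 0.01, 0.02 and 0.02 in MET. The groups overlapped for both genes. HSD3B1 was listed at 0, 0, 0.13 and 0.24 TPM in VEH, at 0 in all 4 CJ28 samples and at 0, 0, 0 and 0.02 in MET. HSD3B2 therefore lay above its paralog in all 12 samples, while neither CYP11B1 nor CYP11B2 could be ranked above the other. None of these 3 genes reached the level required for the test over all genes. The exact two-sided permutation test of CJ28 against VEH gave p = 0.429 for HSD3B1, p = 0.714 for CYP11B1 and p = 0.886 for CYP11B2. For MET against VEH the same exact test gave p = 0.429, 0.429 and 0.171, and for CJ28 against MET it gave p = 1, 0.714 and 0.771.

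All 5 genes that could be tested were lower in CJ28, and unequally so, but HSD3B2 could be tested only because of its levels in VEH and MET. CYP17A1 was at 9.13, 9.58, 9.58 and 9.78 TPM in CJ28, a mean of 9.52 ± 0.275 (SD, n = 4) against 49.0 ± 1.09 in VEH, or 19.4% of VEH. STAR was at 21.18, 19.95, 21.32 and 22.60 TPM, or 38.1% of VEH. CYP11A1 was at 36.29, 35.00, 36.21 and 36.45 TPM, or 38.9% of VEH. The CJ28 samples of these 3 genes all lay far below the lowest VEH sample. CYP21A2 was at 16.89, 18.16, 18.14 and 18.13 TPM, which was 61.8% of VEH and the smallest decrease of the 5. HSD3B2 was at 0.23, 0.23, 0.13 and 0.18 TPM, which was 22.3% of VEH, with the widest spread (CV 24.9% in CJ28 and 10.1% in VEH). All its CJ28 samples lay under the 0.5 TPM of the filter, which it passed through VEH and MET. Its place among the 5 was therefore not independent of its decrease. The samples of CJ28 and VEH did not overlap for any of the 5, which was also the case for 50.3% of the 16815 genes tested. In bulk RNA, fewer cells that express a gene and less of its RNA per cell cannot be told apart.

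In the limma fit of log2(TPM + 0.1), CYP17A1 fell by 2.35 (SE 0.036, adjusted p = 1.7e-13), which was the 54th lowest change of 16815. HSD3B2 fell by 1.73 (SE 0.18, adjusted p = 4.5e-06). STAR fell by 1.39 (SE 0.045, adjusted p = 8.8e-11) and CYP11A1 fell by 1.36 (SE 0.028, adjusted p = 2.1e-12), at places 433 and 467 from the lowest. CYP21A2 fell by 0.69 (SE 0.036, adjusted p = 6.2e-09), at place 2474. With CJ28, 57.0% of tested genes were called in either direction and 37.1% were called lower, and the median change of all genes was -0.13. After median-of-ratios scaling, which moved that median to 0.01, CYP17A1 fell by 2.20 and CYP21A2 by 0.54, and all 5 genes were still called. With TPM over nuclear protein-coding genes, CYP17A1 fell by 2.16 and CYP21A2 by 0.49, and all 5 were called. The size for HSD3B2 depended on the pseudocount, since its TPM was near it, and ranged from -0.64 with 1 to -2.14 with 0.01. Without a pseudocount its mean in VEH was 4.48 times that in CJ28.

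With MET, the same 5 genes lay in or near their VEH range. CYP17A1 was at 48.60, 50.90, 47.37 and 46.71 TPM in MET, CYP11A1 at 95.35, 95.17, 91.08 and 94.05, and STAR at 57.40, 59.63, 55.49 and 57.91. CYP21A2 was at 27.88, 28.12, 29.27 and 28.89 TPM, and HSD3B2 at 0.95, 0.62, 0.78 and 0.87. MET and VEH overlapped for all 5 genes, and group means in MET were between 93.3% and 103% of VEH. No member was called by limma, and the 95% intervals of the log2 difference were -0.05 to 0.14 for STAR, -0.04 to 0.08 for CYP11A1, -0.10 to 0.06 for CYP17A1 and -0.09 to 0.06 for CYP21A2. The interval for HSD3B2 was wider, -0.49 to 0.30. Of all genes tested, 0.00595% were called for MET, 874 had an unadjusted p under 0.05, and 2.81% had samples that did not overlap. For the 5 genes the unadjusted limma p lay between 0.335 and 0.669.

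At the matched dose and time, the compounds differed for every gene tested, of which HSD3B2 had entered the test through VEH and MET. The log2 difference of CJ28 from MET was -2.33 for CYP17A1, -1.63 for HSD3B2, -1.43 for STAR, -1.38 for CYP11A1 and -0.68 for CYP21A2, each called by limma and without overlap between samples. For all genes, 55.5% were called between the compounds, 34.6% were called lower in CJ28, and 50.2% did not overlap.

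**Figure D2:**
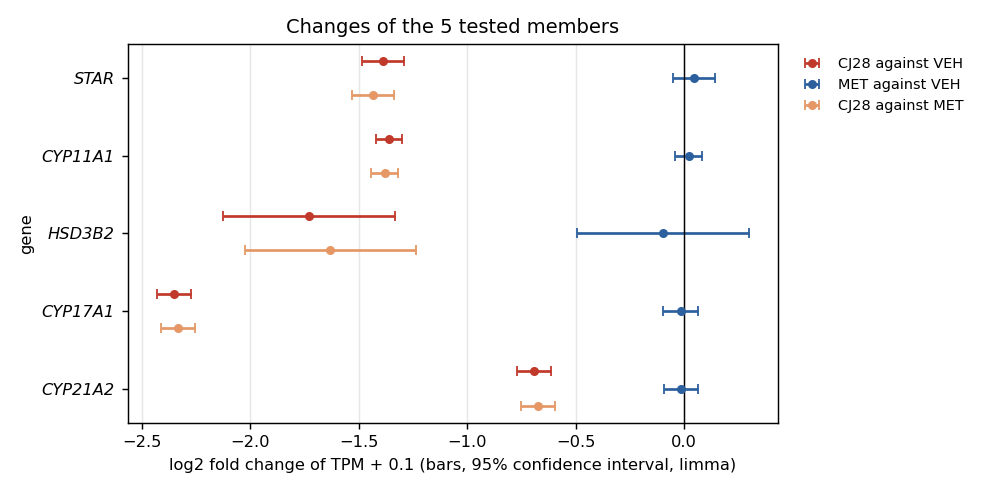
Log2 difference in TPM + 0.1 for the 5 genes tested by limma, with points for the estimate and bars for the 95% interval, for CJ28 against VEH, MET against VEH and CJ28 against MET. The CJ28 estimates lay between -2.35 and -0.68, and every MET against VEH interval included 0.

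The unequal decreases changed the composition of the pathway's mRNA. The summed TPM of the 8 genes was 227 ± 6.18 with VEH, 84.8 ± 1.87 with CJ28 and 229 ± 4.30 with MET, so CJ28 kept 37.3% of the VEH sum. As a share of nuclear protein-coding TPM, the sum was 0.0925% in VEH, 0.0398% in CJ28 and 0.0942% in MET. CYP17A1 gave 21.5% of the sum in VEH and 11.2% in CJ28, while CYP21A2 gave 12.7% and 21.0%. CYP11A1 gave 40.8% and 42.4%, STAR 24.6% and 25.1%, and HSD3B2 0.379% and 0.228%. In MET the shares were 41.0% for CYP11A1, 25.1% for STAR, 21.1% for CYP17A1, 12.5% for CYP21A2 and 0.352% for HSD3B2. The order of levels in VEH and MET was CYP11A1, STAR, CYP17A1, CYP21A2, HSD3B2. In CJ28, CYP21A2 and CYP17A1 changed places in 4 of 4 samples, and CYP17A1 moved to rank 4850 to 5060 among nuclear protein-coding genes from 845 to 923 in VEH. Neighbours among these 5 genes did not overlap in any group, and the 3 genes near 0 had no order.

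**Figure D3:**
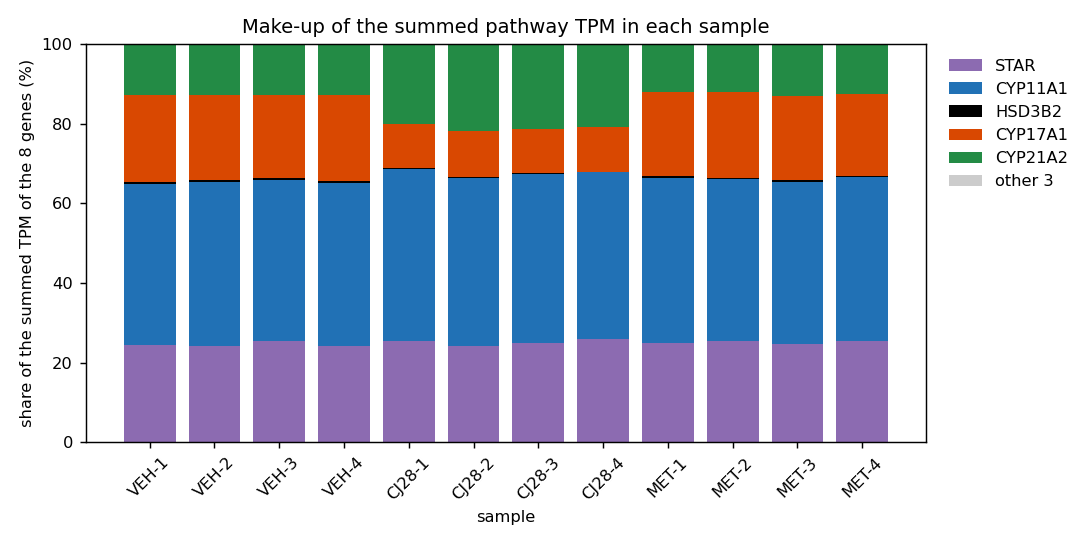
Share of the summed TPM of the 8 genes (%) in each sample, as stacked bars that add up to the sum of the sample. The CYP17A1 band was 21.5% on average in VEH, 21.1% in MET and 11.2% in CJ28, and the CYP21A2 band was 12.7%, 12.5% and 21.0%.

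Ratios of steps within a sample do not depend on the scaling of that sample, apart from the pseudocount. CYP21A2 to CYP17A1, the last pair of microsomal steps, had a TPM ratio of 0.589 ± 0.0101 in VEH, 0.591 ± 0.0330 in MET and 1.87 ± 0.0247 in CJ28 (SD, n = 4). The log2 ratio rose by 1.66 (SE 0.016) from VEH to CJ28, a 3.16-fold shift. CYP17A1 to CYP11A1 went from 0.529 ± 0.00971 in VEH to 0.265 ± 0.00942 in CJ28, with 0.515 ± 0.0162 in MET. The CJ28 samples lay outside the range of the other groups for both ratios. CYP11A1 to STAR, the successive mitochondrial steps, was 1.66 ± 0.0492 in VEH, 1.69 ± 0.0595 in CJ28 and 1.63 ± 0.0276 in MET. Its log2 difference between CJ28 and VEH was 0.03 (SE 0.033, exact permutation p = 0.4), and the groups overlapped.

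In all, 6 ratios were tested in 3 comparisons, which gave 18 exact two-sided permutation tests. Of these, 8 had no overlap between groups and p = 0.0286, the smallest that 4 against 4 samples allow, and the Benjamini-Hochberg adjusted p of these exact tests was 0.0643. Those of CYP17A1 to CYP11A1 and CYP21A2 to CYP17A1 kept their separation at every pseudocount. Those of CYP17A1 to HSD3B2 and CYP21A2 to HSD3B2 did not. How often ratios of other genes separate was not computed, and 50.3% of single genes tested separated CJ28 from VEH. No ratio passed an adjusted threshold of 0.05. None of the 6 ratios separated MET from VEH, and the MET against VEH difference in the log2 ratio of CYP21A2 to CYP17A1 was 0.00 (SE 0.042). CYP11A1 exceeded HSD3B2 108-fold ± 10.5 in VEH, 198-fold ± 58.4 in CJ28 and 120-fold ± 23.5 in MET. Ratios with HSD3B2 in them depended on the pseudocount. The log2 difference between CJ28 and VEH in HSD3B2 to CYP11A1 was -0.37 with 0.1, -0.83 with none and 0.70 with 1. That of CYP17A1 to HSD3B2 was -0.62 with 0.1 and -0.17 with none (exact permutation p = 0.486), so the low TPM of HSD3B2 does not allow its decrease to be placed against that of CYP17A1. The ratios of CYP11B1 to CYP21A2, CYP11B2 to CYP11B1 and HSD3B2 to HSD3B1 were not tested because CYP11B1, CYP11B2 and HSD3B1 were at 0 in some samples.

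**Figure D4:**
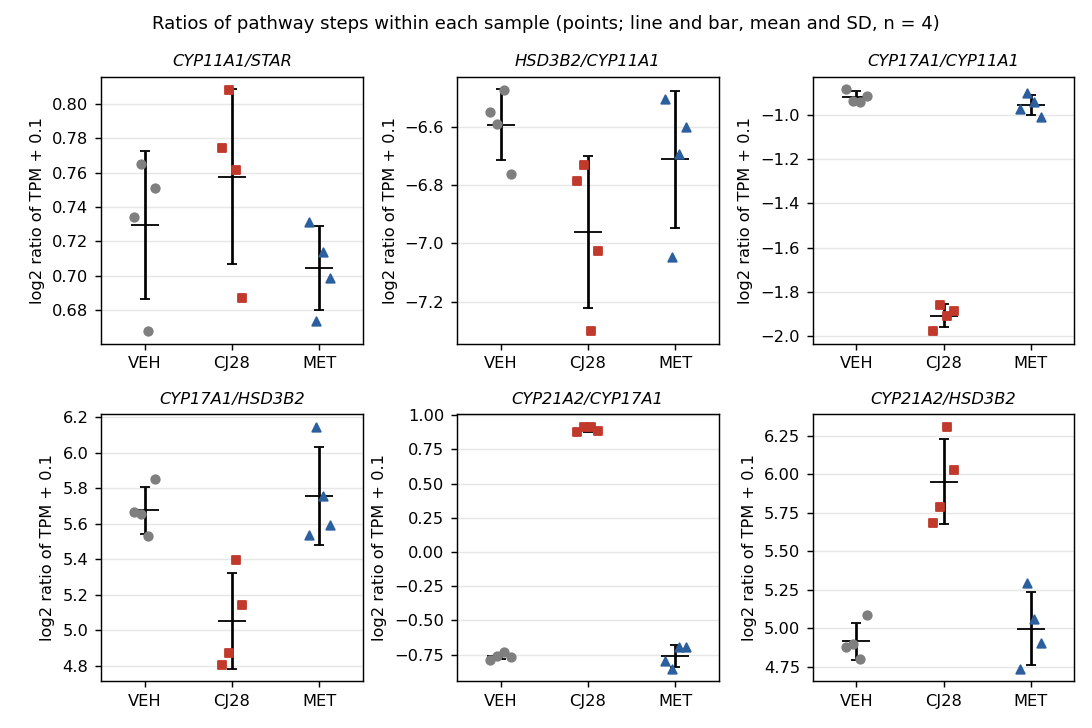
Log2 ratio of TPM + 0.1 between steps of the pathway for the 6 ratios tested, with a point for each sample and the mean ± SD of each group (n = 4). The CYP21A2 to CYP17A1 points averaged -0.76 in VEH and MET and 0.90 in CJ28, and the CYP11A1 to STAR points of all groups overlapped.

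The cytochromes of the pathway need electrons, which reach CYP11A1 and the CYP11B enzymes through FDXR and FDX1 and reach CYP17A1 and CYP21A2 through POR. Of 8 genes of electron transfer, CJ28 raised 1 and lowered 5, and 2 were not called, where 57.0% of all genes tested were called and 37.1% were called lower. Their median log2 change was -0.23, against -0.13 for all genes. FDX1 fell by 0.56 (11.7 to 7.94 TPM) and FDXR, its reductase, by 0.40 (44.5 to 33.7 TPM). PGRMC1, a haem protein that binds P450 enzymes, fell by 1.00, CYB5A, which aids the lyase reaction of CYP17A1, by 0.30, and NNT, a source of mitochondrial NADPH, by 0.16. NNT was no longer called after median-of-ratios scaling (adjusted p = 0.904, limma). FDX2, which serves iron-sulfur cluster assembly, rose by 0.45. POR was at 56.3 ± 2.43 TPM with VEH, 53.3 ± 4.63 with CJ28 and 54.9 ± 2.01 with MET, and its log2 difference of -0.08 between CJ28 and VEH and that of CYB5B, -0.07, turned positive after scaling and were not called.

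Relative to their electron donors, the cytochromes were lower in CJ28, which restates the decreases given above and is not a separate result. These ratios were chosen after the values were seen and are given without a test. CYP17A1 and CYP21A2 together came to 1.38 ± 0.0577 TPM per TPM of POR in VEH, 1.40 ± 0.0794 in MET and 0.515 ± 0.0457 in CJ28. CYP11A1 per FDXR was 2.09 ± 0.106 in VEH, 2.10 ± 0.0877 in MET and 1.07 ± 0.0230 in CJ28, and CYP11A1 per FDX1 was 7.90 ± 0.421, 8.12 ± 0.220 and 4.54 ± 0.213. The CJ28 samples lay below all samples of the other groups in each. How often ratios of other genes separate the groups was not computed. Of single genes tested, 50.3% did not overlap between CJ28 and VEH.

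The genes listed beside STAR for the delivery of cholesterol to mitochondria, LONP1 among them, moved in both directions. CJ28 raised 3 of 7, lowered 3 and left 1 uncalled, with a median of -0.21. The count lowered lay near the share of all genes tested that were called lower, 37.1%. Of all 16815 genes tested, 57.0% were called, 3346 of them higher, and the median was -0.13. LONP1, the mitochondrial protease that degrades StAR, rose by 0.85, from 24.1 ± 1.05 to 43.4 ± 2.43 TPM. STARD3, which moves cholesterol out of late endosomes, and ACBD3, a partner of TSPO, each rose by 0.26, and STARD3 was not called when all genes above 0 were fitted (adjusted p = 0.072, limma). STARD4, a soluble cholesterol carrier of the StAR family, fell by 0.64, VDAC1, a channel of the outer mitochondrial membrane, by 0.59, and AKAP1, which anchors protein kinase A there, by 0.21. AKAP1 was not called after median-of-ratios scaling (adjusted p = 0.479, limma). TSPO was at 0.673 ± 0.130 TPM in VEH and 0.555 ± 0.299 in CJ28, and did not pass the test.

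Of 12 transcription regulators of the pathway, 10 were tested, and CJ28 raised 3, lowered 4 and left 3 uncalled, with a median of 0.06, beside 57.0% called, 37.1% called lower and a median of -0.13 among all genes tested. NR5A1, the gene of SF-1, fell by 0.84 (SE 0.050), from 47.9 ± 1.89 to 26.8 ± 1.76 TPM. NR0B1, the gene of DAX-1, which represses SF-1, rose by 0.96, from 2.94 ± 0.271 to 5.81 ± 0.292 TPM. NR4A1, an orphan receptor induced by cAMP, rose by 0.95, from 22.2 ± 1.44 to 43.2 ± 5.30 TPM, and CEBPB, a leucine zipper factor of stress and cAMP responses, rose by 2.05, from 3.90 ± 0.311 to 16.4 ± 1.15 TPM. NR5A1 and NR0B1 thus changed in opposite directions, and NR4A1 and CEBPB rose as NR0B1 did. GATA6, a zinc finger factor of the adrenal cortex, fell by 1.11, from 1.59 ± 0.129 to 0.690 ± 0.165 TPM, SP1, a general activator, by 0.36, and CREM, a cAMP-responsive factor, by 0.32. NR4A2, GATA4 and CREB1 were not called, with log2 differences of 0.09, 0.07 and 0.06. NR5A2 was listed at 0 in all samples and NR0B2 reached at most 0.10 TPM, so neither was tested. Whether the regulators took part in the change of the enzymes was not tested.

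Enzymes that divert or modify adrenal steroids were lower in CJ28 wherever they could be tested, 4 of 4 tested out of 8, with a median of -0.90, beside 37.1% of all genes tested called lower and a median of -0.13. SULT2A1, which sulfates DHEA, fell by 1.42 (SE 0.060), from 10.2 ± 0.823 to 3.75 ± 0.141 TPM, close in size to STAR and CYP11A1. STS, which removes the sulfate again, fell by 1.21, H6PD, which supplies NADPH to HSD11B1, by 0.59, and SRD5A1, a 5α-reductase, by 0.51. HSD11B1, HSD11B2, SRD5A2 and AKR1D1 did not exceed 0.67 TPM in any sample and were not tested. Of the 8 adrenocortical markers, 7 were tested, of which 1 rose (NR0B1), 4 fell (NR5A1, FDX1, INHA and MC2R) and 2 were not called. Among all genes tested, 57.0% were called and 37.1% were called lower, so these counts lay near those shares. INHA and MC2R were low, at 1.67 and 1.045 TPM in VEH and 0.665 and 0.35 in CJ28. The 2 not called were the most abundant, SCARB1 at 142 TPM in VEH and 164 in CJ28 and DLK1 at 170 and 184 TPM. Across the lists of electron transfer, cholesterol import, regulators and branch enzymes, 23 of 29 genes tested were called for CJ28 against VEH and 0 of 29 for MET against VEH by limma, beside 57.0% and 0.00595% of all genes tested. Among these 29 genes the MET difference farthest from 0 was that of CREB1, -0.30 (adjusted p = 0.904, limma).

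**Figure D5:**
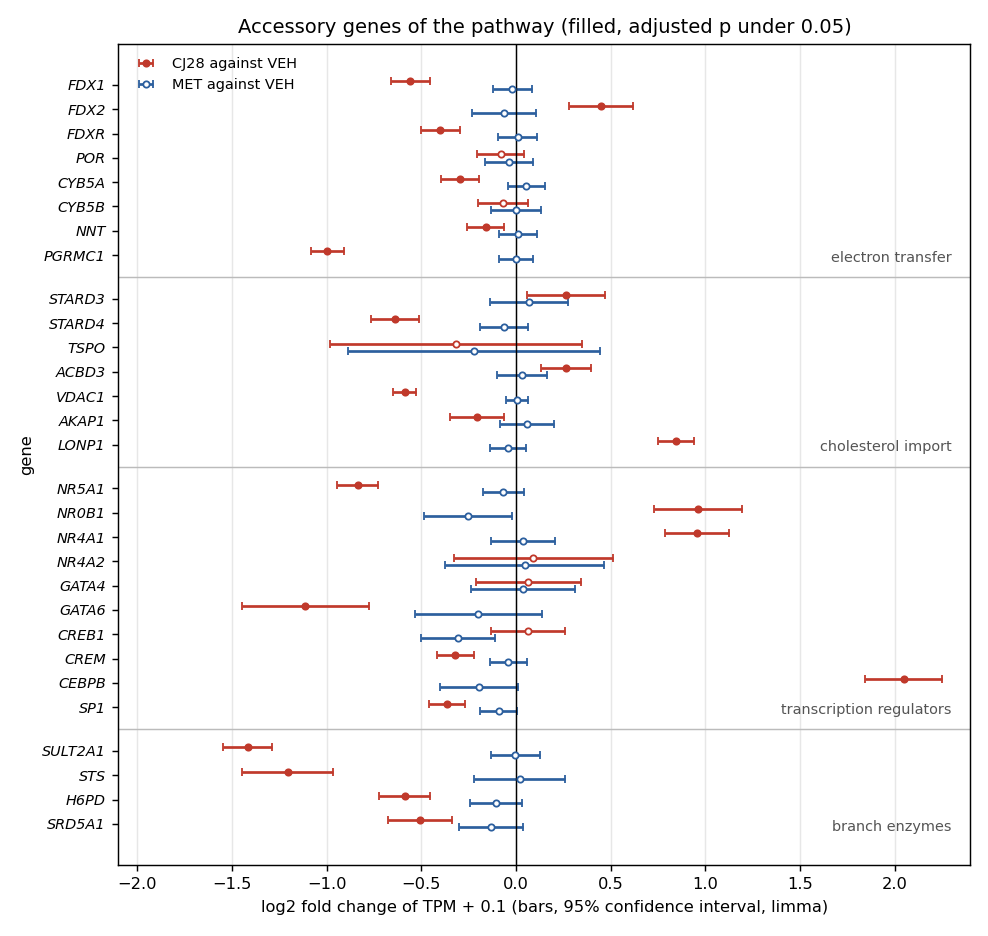
Log2 difference in TPM + 0.1 of CJ28 against VEH (red) and MET against VEH (blue) for the 29 accessory genes tested, grouped by role on the y axis, with filled points for an adjusted p under 0.05 in limma and bars for the 95% interval. All 4 branch enzymes lay below 0 for CJ28, CEBPB, at 2.05, and GATA6, at -1.11, marked the ends of the regulators for CJ28, and no MET point was filled.

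By a rule set for naming, the 2 genes whose log2(TPM + 0.1) followed each of the 4 abundant members most closely over the 12 samples were listed, by Pearson's r and with no test. STAR was closest to CYP11A1 (0.999) and AL031777.2 (0.998). CYP11A1 was closest to H1-5 (0.999) and CYP17A1 (0.999). CYP17A1 was closest to FADS2 (0.999), a fatty acid desaturase, and INSIG1 (0.999), a sterol-regulated protein that restrains cholesterol synthesis. CYP21A2 was closest to H2BC17 (0.997) and SEMA7A (0.996). H1-5 and H2BC17 are histone genes, whose reads may be split among near-identical copies. Such values were common, and between 1633 and 1826 genes had an r above 0.95 with each member.

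In the coordinates of the table (GRCh38), CYP11A1 (ENSG00000140459.18) lay on chromosome 15 from 74337759 to 74367646, CYP17A1 (ENSG00000148795.7) on chromosome 10 from 102830531 to 102837472, and CYP21A2 (ENSG00000231852.9) on chromosome 6 from 32038327 to 32041644. HSD3B2 (ENSG00000203859.10) and HSD3B1 (ENSG00000203857.10) lay near each other on chromosome 1, from 119414931 to 119423035 and from 119507198 to 119515054. CYP11B1 (ENSG00000160882.12) and CYP11B2 (ENSG00000179142.2) were neighbours on chromosome 8, from 142872354 to 142879846 and from 142910559 to 142917843, and STAR (ENSG00000147465.12) lay on the same chromosome from 38142700 to 38150992. CYP21A2 has a pseudogene copy, CYP21A1P, and 25.4% of the 2038 windows of 100 bases in the longest CYP21A2 transcript of GENCODE occurred in CYP21A1P as well. CYP21A1P was listed at no more than 0.12 TPM, so reads assigned to it were few beside those of CYP21A2, whose value remains uncertain by the way RSEM divides shared reads. The shared windows were 2.87% for CYP11B1 in CYP11B2 and 0.238% for HSD3B2 in HSD3B1. Genes that overlapped the 8 genes lay on the opposite strand in every case. They included WBP1L over CYP17A1 (12.8 TPM in VEH, 10.5 in CJ28) and ASH2L over STAR (9.82 and 7.81 TPM), and TNXB over 492 bases of CYP21A2 reached at most 1.06 TPM. The pseudogene PPIAP46, over 13853 bases of CYP11A1, was at 1.72 TPM in VEH and 0.678 in CJ28. The libraries were stranded, and the strand setting of the counting was not given in the sources used here.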

How the data were processed

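RNA was measured in 12 samples of NCI-H295R cells, 4 per group, and samples were grouped by their labels. Ribosomal RNA had been removed and stranded libraries had been read from both ends. The authors trimmed reads with Cutadapt (version 2.8), aligned them to GRCh38 with STAR (version 2.7.10b) and deposited the TPM given by RSEM (version 1.3.3), to 2 decimals. The annotation release is not given in the sources used here. TPM holds no read counts, so no count model, counting error or detection floor was computed, and the DESeq2 analysis of the study could not be repeated. The table does not give the reads behind a value, and a listed 0 need not mean that a gene was absent.

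The 8 genes and the lists of accessory genes were chosen with earlier results of these data known. log2(TPM + 0.1) was fitted in limma (version 3.58.1, R version 4.3.3; trended eBayes) for 16815 genes with at least 0.5 TPM in at least 4 samples, with all 12 samples and no covariate. Two-sided p-values were adjusted over all tested genes by the Benjamini-Hochberg method, with a threshold of 0.05. The procedure was checked on simulated data. Ratios and single genes under the filter were compared by exact permutation tests of group means. Named genes are the 8 genes, genes of the lists, and for each member with a mean TPM of at least 1 the 2 genes with the highest correlation. The labels call the samples biological replicates without saying whether cultures were separate, so p-values measure the spread between these samples. Alternatives were pseudocounts of 1 and 0.01, median-of-ratios scaling, every gene above 0, a minimum mean of 1 TPM, TPM over nuclear protein-coding genes, only the groups compared, the replicate block, and each sample left out. Ratios without a pseudocount were added after values had been seen.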

Additional observations from a re-analysis of the deposited data

Results flagged for a closer look

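In 5 of 41 groups of 4 samples examined, 1 sample stood apart from the others by Dixon's test, which flags about 1 group in 20 by chance. CYP11A1 was at 35 TPM in CJ28 replicate 2, with the others between 36.21 and 36.45. CYP21A2 was at 16.89 TPM in CJ28 replicate 1, with the others between 18.13 and 18.16. CYP17A1 was at 47.33 TPM in VEH replicate 2, with the others between 49.37 and 49.66. Each of these 3 was the lowest sample of its group. HSD3B1 was at 0.02 TPM in MET replicate 4 and CYP11B1 at 0.01 TPM in VEH replicate 3, where the other 3 samples were listed at 0. Any value above 0 is flagged in such a group, so the rate of about 1 in 20 does not hold there.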

How the results depend on the processing

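Of 678 recomputed values for 67 results, 660 were taken as kept. A tested difference was kept if its direction and its side of the threshold stayed. Counts were judged by their size alone, so a count of 5 that became 4 was among those kept. The ratios of steps could hardly pass the threshold, since the smallest p of their exact permutation test was 0.0286 before adjustment. With the replicate block they could not pass it. Their unchanged side therefore says little. The count of members called was 5 for CJ28 against VEH and against MET and 0 for MET against VEH in the fit described. It was 4 where a mean TPM of at least 1 was required, since HSD3B2 was then not tested. With the replicate block the counts were 5, 5 and 0, and no call on a member changed. Deviations of equally numbered samples correlated at 0.0236 on average between CJ28 and VEH, -0.0237 between MET and VEH and -0.0478 between CJ28 and MET, so the numbers were not taken to pair the samples.

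No call for CJ28 on a member changed its direction. Differences for MET close to 0 changed sign: HSD3B2 to 0.0069 without MET replicate 2 (range -0.17 to 0.0069 over samples left out), and CYP17A1 to 0.014 and CYP21A2 to 0.015 after median-of-ratios scaling. The same scaling turned POR to 0.072 and CYB5B to 0.086 for CJ28, neither of them called. With a pseudocount of 1, HSD3B2 to CYP11A1 turned to 0.70 against VEH and 0.76 against MET, and CYP21A2 to HSD3B2 to -0.022 and -0.054. Without single samples, MET against VEH ranged from -0.021 to 0.033 for CYP21A2 to CYP17A1, from -0.049 to 0.16 for CYP17A1 to HSD3B2 and from -0.016 to 0.17 for CYP21A2 to HSD3B2. The change in sign with a pseudocount follows from the TPM of HSD3B2 lying below 1, and the causes of the others were not tested. Scaling by median of ratios changed the calls for CJ28 against VEH over all genes from 3346 higher and 6231 lower to 4925 and 4430.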
